A study of Homo sapiens with 12 samples.

Results

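Genes of the mitochondrial respiratory chain and ATP synthase were described in ES-2 cells, an established line from a human ovarian tumour. They were taken by a rule on symbols: NDUFA, NDUFB, NDUFC, NDUFS and NDUFV genes, SDHA to SDHD, UQCR genes, CYC1, COX4 to COX8 genes, ATP5 genes, and the ND, CO, CYB and ATP genes of the mitochondrial genome. The choice was made with earlier results of these data known. The rule found 106 of the 14029 genes tested, 93 encoded in the nucleus and 13 in the mitochondrial genome. It also takes in 8 NDUFAF genes, whose products help assemble complex I but are not part of it, and these are counted apart. NDUFA4 and NDUFA4L2 were placed in complex IV, to which NDUFA4 protein belongs. Symbols that fit the rule but have no row in the table, such as COX4I2, COX6A2, UQCR11 and NDUFA7, are not analysed here.

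Poly(A) RNA was sequenced from 3 libraries labelled SRMS shRNA (the labels' genotype is SRMS knockdown) and 3 control vector libraries (PLKO in the labels, genotype WT), all from cells given 15 µM cisplatin, a platinum drug that crosslinks DNA, for 8 hours. Both groups carry a construct, and the labels say neither how many hairpins were used nor whether cells were cloned. SRMS is a non-receptor tyrosine kinase. The 6 samples given PBS instead of cisplatin are not analysed here, so nothing below measures a response to the drug. Whether the replicates are separate cultures is not given in the labels. The p-values therefore speak only to variation among these 6 libraries, some or all of which may be technical.

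The deposited values are CPM, reads scaled by an effective library size, and recovered reads came to 28009232 to 38072051 in the libraries labelled SRMS shRNA and 29072793 to 56855428 in the vector libraries. The targeted gene was hardly read: SRMS had 9, 39 and 27 reads in the libraries labelled SRMS shRNA, against 2, 14 and 47 reads in the vector libraries. In CPM these are 0.328, 1.07 and 0.863 in the libraries labelled SRMS shRNA, against 0.0669, 0.306 and 0.819 in the vector libraries. The groups overlapped, and SRMS was not lower with the hairpin (log2 fold change 0.52, limma adjusted p = 0.168). It was called higher with the replicate number as a block (adjusted p = 0.00782) and without SRMS shRNA replicate 1 (0.0245) or vector replicate 3 (0.0281), so the group is named by its label throughout. Of 8 markers for the line, KRT7, KRT8, KRT18 and VIM were well read, PAX8 was under 1, and KRT19, EPCAM and CDH1 are not analysed here. Summed values of 4 listed leukocyte markers, most of it CD68, were 60.6 to 65.1 with SRMS shRNA against 49.5 to 52.2 with the vector. The 3 endothelial markers with a row summed to 5.88 to 8.36 with SRMS shRNA against 14.8 to 16.8 with the vector. Nearly all of this was CDH5, with a mean of 6.12 with SRMS shRNA against 15.2 with the vector. PECAM1 (0.393 against 0.211) and KDR (0.649 against 0.672) had means under 1 and neither was called. The 5 fibroblast markers summed to 822 to 828 with SRMS shRNA against 1246 to 1251 with the vector, nearly all COL1A1, while COL1A2 and COL3A1 were at or near 0. The part of these markers in the results below was not tested.

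The respiratory chain passes electrons from NADH through complex I, and from succinate through complex II, to coenzyme Q, then through complex III and cytochrome c to oxygen at complex IV. Complexes I, III and IV pump protons, and complex V, the ATP synthase, makes ATP from the returning flow. Complex II is encoded in the nucleus alone, whereas the others combine nuclear subunits with subunits made from the mitochondrial genome, so their supply depends on 2 genomes.

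Transcripts of both genomes were higher in the libraries labelled SRMS shRNA by a small and similar amount. Of the 106 members, 92 rose and 2 fell (limma on log2(value + 0.5), Benjamini-Hochberg adjusted p under 0.05 over all genes), while 26.6% of all genes tested were called higher and 30.2% lower. The 2 that fell were NDUFS1 and NDUFA10 of complex I. The median log2 fold change was 0.37 over the 93 nuclear members and 0.42 over the 13 mitochondrial ones, against 0.003 over all genes tested. No member changed by 1 or more on the log2 scale, and 14 rose by at least 0.5. In 88 members every library labelled SRMS shRNA was above every vector library, and in 4 every one was below, while 29.7% and 32.9% of all genes did so. In bulk RNA, fewer cells of a type and less RNA per cell cannot be told apart.

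By complex, 6 of 7 nuclear core subunits of complex I rose (median log2 fold change 0.30), as did 25 of 29 accessory subunits (0.41) and 6 of 8 NDUFAF assembly factors (0.31). Complex II had 3 of 4 higher (0.25), complex III 8 of 9 nuclear members (0.34), complex IV 14 of 16 (0.40) and complex V 18 of 20 (0.38). The mitochondrial genome had 12 of 13 higher (0.42). The medians of the complexes lie close together, and no difference between complexes was tested.

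**Figure D1:**
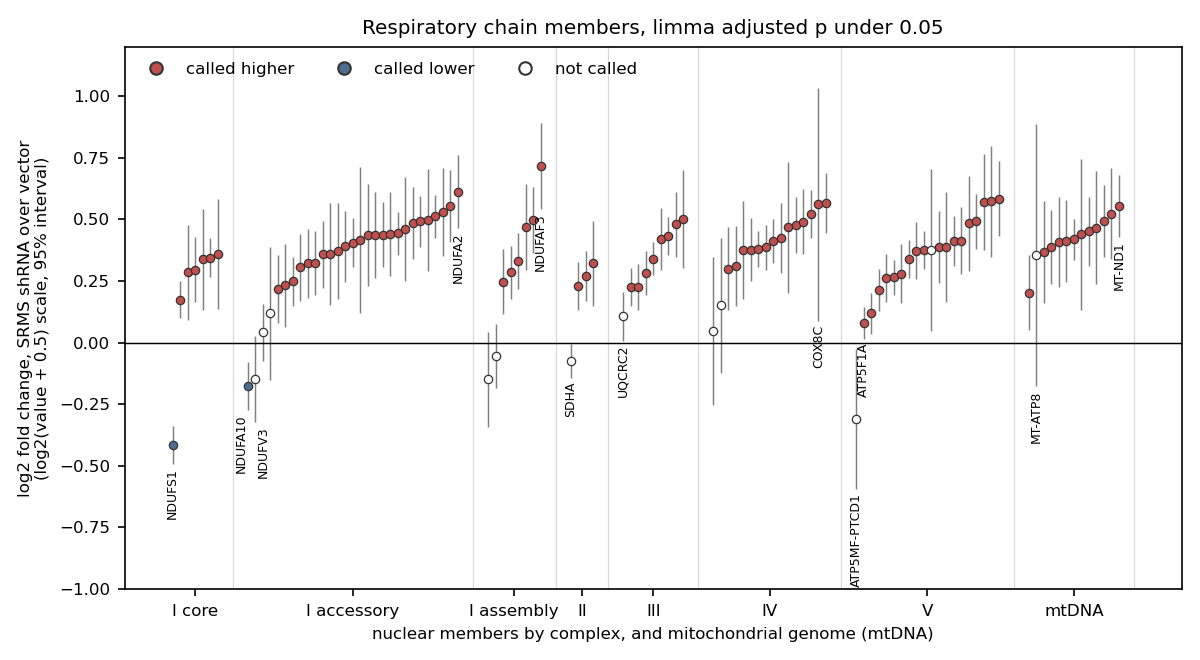
Log2 fold change (SRMS shRNA over vector, y axis) of each of the 106 members with its 95% interval, grouped by complex and genome and ordered by size within each group. Red points were called higher, blue points lower and white points neither. Nearly all points lie between 0.1 and 0.6, and NDUFS1 stands lowest among the well-read members at -0.42.

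As a share of recovered reads, the 13 mitochondrial members took 5.40, 6.12 and 6.12% in the libraries labelled SRMS shRNA, against 4.15, 4.78 and 4.83% in the vector libraries. Their mean share was 5.88 ± 0.418% with SRMS shRNA and 4.59 ± 0.380% with the vector (SD, n = 3 each). The nuclear members took 1.40, 1.49 and 1.47% with SRMS shRNA, against 1.21, 1.23 and 1.25% with the vector. For neither share did the groups overlap, although an exact two-sided permutation test of 3 libraries against 3 cannot go below p = 0.1. Replicate 1 had the lowest mitochondrial share in each group. The RNA was selected by its poly(A) tails, so values of mitochondrial members also depend on how well their tails were captured. The part of capture in these shares and in the mitochondrial values below was not tested.

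Transcript length moved with these results. Most nuclear members have short mRNAs (median 842 nt, against 2503 nt over all genes), and across genes the log2 fold change was lower for longer transcripts. Spearman's rho was -0.498 over 87 nuclear members with a mean value of at least 1 and -0.463 over 11833 genes, points that share the same 6 libraries. The length ranges that follow also hold only genes with a mean value of at least 1. Among genes under 1000 nt, 52 of 54 nuclear members were called higher (median log2 fold change 0.41), and so were 652 of all 1015 such genes (0.29). From 1000 nt to under 2000 nt, 18 of 21 nuclear members were higher (0.32), against 1321 of 3174 genes (0.11). At 2000 nt or more, 8 of 12 nuclear members were higher and 2 lower (0.23), while 1256 of 7644 genes were higher and 3478 lower (-0.13). The members' medians were thus above those of all genes in each length range.

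**Figure D2:**
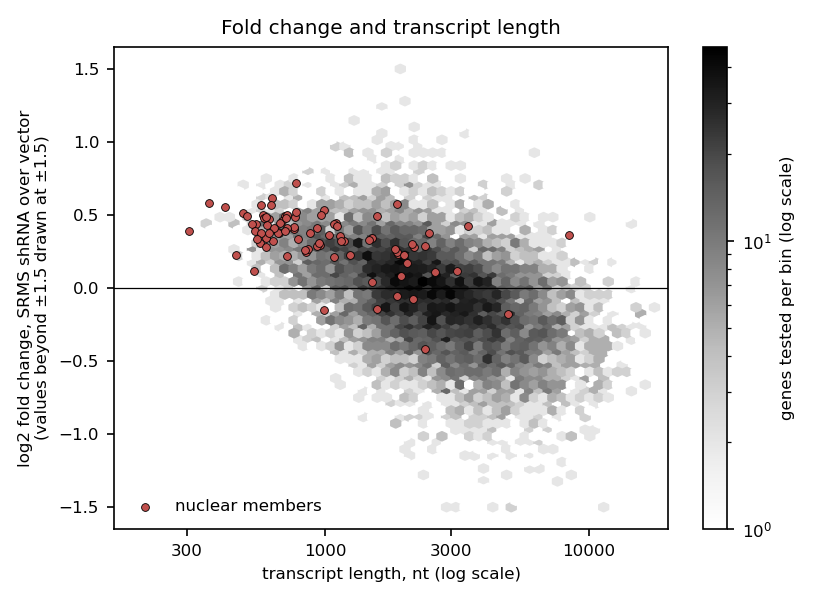
Log2 fold change (SRMS shRNA over vector) against transcript length on a log axis, for all genes with a mean value of at least 1 (grey bins, darker where more genes fall) and the 87 nuclear members (red points). Short transcripts lie mostly above 0 and long ones mostly below, and the members sit at the short end, where 54 of them are under 1000 nt.

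With a trend in transcript length and GC content removed from the log values of each library, 62 members were called higher and 6 lower. Of all genes, 24.3% were then higher and 28.0% lower. With the replicate number as a block besides, 75 were higher and 8 lower, against 29.6% and 32.6% of all genes. Without the block the median was 0.17 over nuclear members and 0.25 over mitochondrial ones. The 6 lower members, again without the block, were NDUFS1, NDUFV3, NDUFAF5, SDHA, SDHC and ATP5MF-PTCD1. Aligning the libraries on their medians instead shifted the median fold change by 0.16, so that 6254 of all genes were higher and 2510 lower, against 3736 higher and 4233 lower as deposited. The nuclear members then had a median of 0.53 and the mitochondrial ones 0.58, relative to 0.16 over all genes, and 97 members were higher and 1 lower, against 44.6% and 17.9% of all genes. Quantile normalization gave 84 higher and 4 lower, against 28.3% and 26.3%. Under these 3 treatments the median of each class stayed above 0, except for complex II with the trend removed (-0.025).

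**Figure D3:**
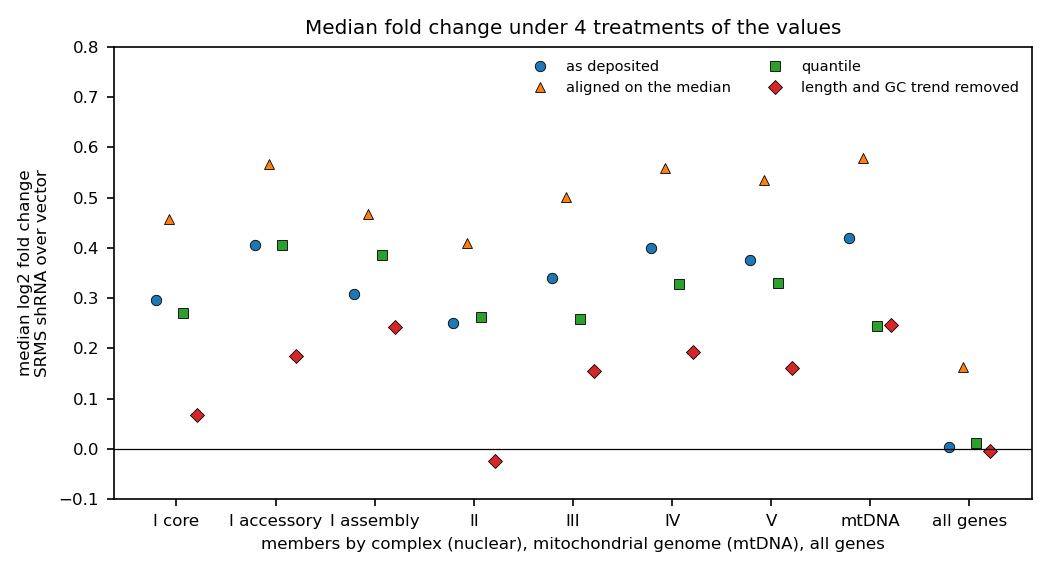
Median log2 fold change (SRMS shRNA over vector) of each class of members and of all genes, with the values as deposited (circles), libraries aligned on their median (triangles), quantile normalization (squares) and the length and GC trend removed (diamonds). The medians of all classes are above that of all genes under each treatment, except for complex II with the trend removed, at -0.025.

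Sequence before the start was examined because the nuclear members moved together. RefSeq windows (GRCh38.p14) of the 250 bases before the RefSeq start were available for 73 of the 93 nuclear members and for 11313 of the genes tested. The windows below are shown for NDUFS1, which fell, and for 3 members that rose, COX5B, SDHD and ATP5ME. They run 5′ to 3′ on the gene's strand. Capitals mark matches to GCATGCGC, a motif bound by NRF1 (nuclear respiratory factor 1), or to CCGGAAGT, a motif bound by ETS factors such as GABP, on either strand.
NDUFS1, minus strand, chr2:206159445-206159694: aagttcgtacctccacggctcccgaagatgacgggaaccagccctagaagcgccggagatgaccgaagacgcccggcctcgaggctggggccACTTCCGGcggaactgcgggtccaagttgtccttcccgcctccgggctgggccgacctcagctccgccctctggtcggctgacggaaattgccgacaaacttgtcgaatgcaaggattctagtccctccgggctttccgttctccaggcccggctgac
COX5B, plus strand, chr2:97645812-97646061: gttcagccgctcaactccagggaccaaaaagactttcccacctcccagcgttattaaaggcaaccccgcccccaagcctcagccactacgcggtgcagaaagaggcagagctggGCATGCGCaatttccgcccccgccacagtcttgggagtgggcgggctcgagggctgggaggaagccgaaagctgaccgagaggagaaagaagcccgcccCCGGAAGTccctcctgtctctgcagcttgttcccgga
SDHD, plus strand, chr11:112086623-112086872: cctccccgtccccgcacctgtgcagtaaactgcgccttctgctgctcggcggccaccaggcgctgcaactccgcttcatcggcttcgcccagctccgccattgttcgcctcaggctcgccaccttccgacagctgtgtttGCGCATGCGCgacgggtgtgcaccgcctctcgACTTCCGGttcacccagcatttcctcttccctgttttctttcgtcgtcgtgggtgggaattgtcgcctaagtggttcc
ATP5ME, minus strand, chr4:674277-674526: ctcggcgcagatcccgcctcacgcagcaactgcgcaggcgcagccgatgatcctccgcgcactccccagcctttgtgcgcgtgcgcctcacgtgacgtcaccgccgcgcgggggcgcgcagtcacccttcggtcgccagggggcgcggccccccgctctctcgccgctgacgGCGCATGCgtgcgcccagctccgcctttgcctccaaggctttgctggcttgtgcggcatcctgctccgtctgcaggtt
In NDUFS1 the ETS motif, read as ACTTCCGG, began 158 bases before the RefSeq start, and no NRF1 motif was in the window. The gene as annotated by GENCODE starts farther out, so this match lies inside it, and so does the ETS match of SDHD. COX5B carried the NRF1 motif 136 and the ETS motif 37 bases before the start. In SDHD the NRF1 motif was found on both strands, overlapping from 110 bases before the start, with the ETS motif at 78. ATP5ME had the NRF1 motif, read as GCGCATGC, 78 bases before the start. These windows were listed by name and not picked by a rule. All 3 shown for members that rose hold the NRF1 motif, which only 12 of the 73 members have, so they do not stand for the members as a set.

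The NRF1 motif was in the windows of 12 of the 73 nuclear members (16.4%), against 4.54% of all genes' windows, and the ETS motif in 9 (12.3%), against 6.63%. GGGGCGGGG, bound by SP1, was in 10 (13.7%), against 26.0%, and ATTGG, the CCAAT box read on the other strand, in 23 (31.5%), against 35.4%. All 4 were searched on both strands. The median log2 fold change was 0.37 with the NRF1 motif and 0.41 without it, and 0.48 with the ETS motif and 0.38 without it. A match describes the letters and not binding.

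Within complex I, the 7 nuclear core subunits hold the flavin and iron-sulfur clusters that carry electrons from NADH to coenzyme Q. NDUFS1 (chr2:206114817-206159603 on GRCh38, minus strand), the large iron-sulfur subunit of the NADH-oxidising module, had 107, 102 and 103 in the libraries labelled SRMS shRNA, against 138, 139 and 139.8 in the vector libraries. It was lower in every library labelled SRMS shRNA (log2 fold change -0.42, SE 0.034, limma adjusted p = 5.47e-06). It stayed lower with libraries aligned on their medians (-0.26), after removal of the length and GC trend (-0.38) and without any single library.

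Other core subunits went the opposite way. NDUFV1, which binds NADH and the flavin, had 263, 282 and 279.5 with SRMS shRNA, against 214, 220.0 and 215 with the vector (log2 fold change 0.35, SE 0.036, limma adjusted p = 2.65e-05), with no overlap. NDUFV2, its iron-sulfur partner, had 199, 245 and 241 with SRMS shRNA, against 165, 198 and 199 with the vector (log2 fold change 0.28, limma adjusted p = 0.0169). Replicate 1 was lowest in both groups of NDUFV2, and its call was lost without SRMS shRNA replicate 2 or 3 or vector replicate 1 (adjusted p = 0.0761, 0.0701 and 0.0594). NDUFS7, an iron-sulfur subunit near the coenzyme Q site, rose by 0.36 on the log2 scale (limma adjusted p = 0.0111). NDUFS3 had 125, 148 and 141 with SRMS shRNA, against 107, 114 and 115 with the vector (log2 fold change 0.30, SE 0.059, limma adjusted p = 0.00165), and NDUFS8 rose as well (0.34, limma adjusted p = 0.00973). With the length and GC trend removed, NDUFV1 was still called higher, whereas NDUFV2, NDUFS3, NDUFS7 and NDUFS8 were not called. With the replicate block added, NDUFV2 and NDUFS3 were called higher (adjusted p = 7.81e-05 and 0.0248).

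The contrast within the subunit set can be read as a ratio inside each library, which no library scaling can alter. NDUFS1 over NDUFS3 was 0.858, 0.692 and 0.731 with SRMS shRNA, against 1.29, 1.23 and 1.22 with the vector. Every ratio with SRMS shRNA was below every vector ratio. Such a ratio does not remove the trend with transcript length, and NDUFS3 was not among the genes named by rule. With the length and GC trend removed, NDUFS1 was still called lower and NDUFS3 was not called. NDUFS3 was called higher once the replicate block was added.

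**Figure D4:**
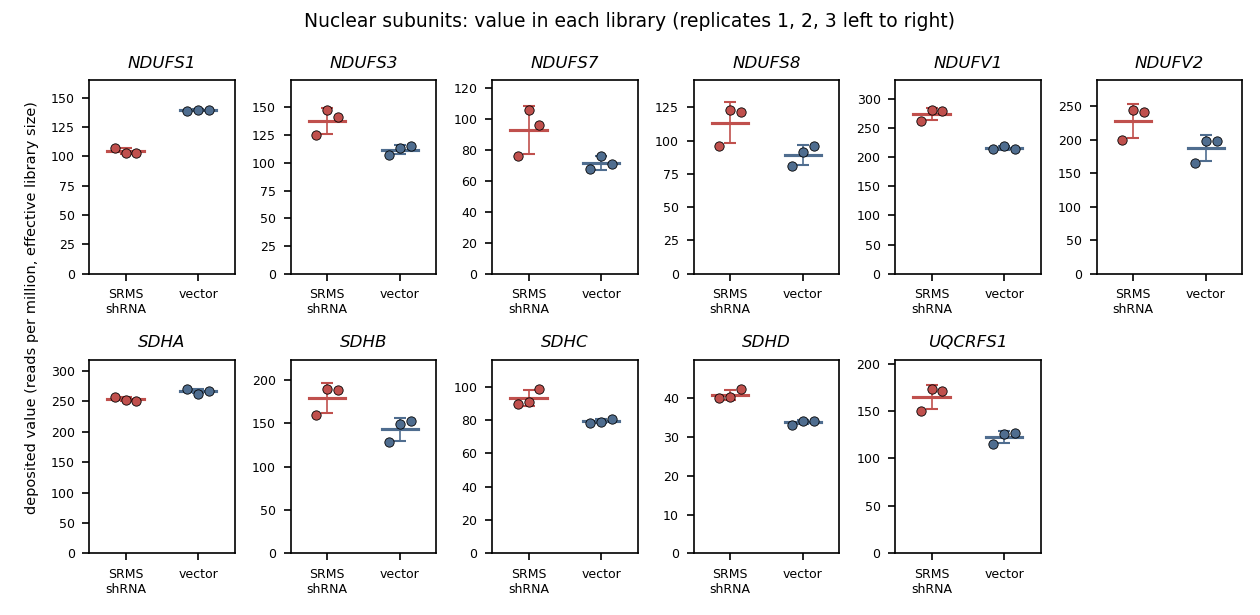
Deposited value (CPM of effective library size) of 6 nuclear core subunits of complex I, the 4 of complex II and UQCRFS1 of complex III in each library, with mean and SD bars. Each panel starts at 0 and has its own scale. NDUFS1 is the panel where the libraries labelled SRMS shRNA sit clearly below the vector libraries, and SDHA is slightly lower.

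Accessory subunits surround this core, and 25 of 29 rose. NDUFA2, of the NADH-oxidising arm, rose most: it had 55.3, 66.9 and 63.5 in the libraries labelled SRMS shRNA, against 38.3, 41.2 and 41.0 in the vector libraries (log2 fold change 0.61, SE 0.067, limma adjusted p = 3.47e-05). NDUFB1, of the membrane arm, had 37.8, 43.1 and 38.5 with SRMS shRNA, against 24.9, 27.6 and 28.3 with the vector (log2 fold change 0.55, SE 0.067, limma adjusted p = 6.24e-05). In neither did the groups overlap. NDUFB9, also of the membrane arm and the most read accessory subunit, had 345, 404 and 395 with SRMS shRNA, against 282, 313 and 318 with the vector (log2 fold change 0.32, limma adjusted p = 0.00143).

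NDUFA10, an accessory subunit of the membrane arm, was the other member that fell. Its values were 70.8, 73.6 and 69.8 in the libraries labelled SRMS shRNA, against 76.7, 81.5 and 83.9 in the vector libraries (log2 fold change -0.18, SE 0.044, limma adjusted p = 0.00659), without overlap. Aligned on library medians its log2 fold change was -0.02, and after removal of the trend in length and GC it was 0.02, neither past the threshold. NDUFV3, a small subunit of the NADH-oxidising arm, had 32.5, 39.6 and 36.4 with SRMS shRNA, against 36.6, 40.4 and 43.1 with the vector, which overlapped (log2 fold change -0.15, SE 0.078, limma adjusted p = 0.134). With the replicate number as a block it was called lower (adjusted p = 0.00559). NDUFA5 and NDUFA11 were also not called, with log2 fold changes of 0.04 and 0.12 (limma adjusted p = 0.519 and adjusted p = 0.428). The 25 that rose had log2 fold changes from 0.22 (NDUFAB1, the mitochondrial acyl carrier protein) to 0.61. Calls were lost without 1 library for NDUFAB1 (without SRMS shRNA replicate 3, limma adjusted p = 0.0587), for NDUFC1 (without SRMS shRNA replicate 2 or 3 or vector replicate 1, 0.0786 to 0.0973) and for NDUFC2 (without those or vector replicate 2, 0.0726 to 0.0831).

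Among the assembly factors, NDUFAF3, which acts early on the coenzyme Q module together with NDUFAF4, had the highest fold change of all members. It had 44.9, 54.6 and 51.8 in the libraries labelled SRMS shRNA, against 27.9, 32.8 and 30.7 in the vector libraries (log2 fold change 0.72, SE 0.079, limma adjusted p = 3.50e-05). NDUFAF4 rose as well, with 89.8, 96.3 and 96.9 with SRMS shRNA, against 73.5, 77.0 and 81.4 with the vector (log2 fold change 0.29, limma adjusted p = 0.000588). NDUFAF2, which helps attach the NADH-oxidising module, rose by 0.50 on the log2 scale, and NDUFAF8 by 0.47 (limma adjusted p = 6.88e-05 and adjusted p = 0.000578). NDUFAF5 and NDUFAF7, a hydroxylase and a methyltransferase of core subunits, were not called (-0.15 and -0.05, limma adjusted p = 0.17 and adjusted p = 0.453), and both turned slightly positive on aligned or quantile-normalized values.

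Complex II oxidises succinate and has 4 subunits. SDHB, the iron-sulfur subunit, had 159.7, 189.5 and 189 in the libraries labelled SRMS shRNA, against 128, 149 and 153 in the vector libraries (log2 fold change 0.32, SE 0.078, limma adjusted p = 0.00504). The membrane anchors rose too: SDHC had 89.9, 91.0 and 98.5 with SRMS shRNA, against 78.5, 78.7 and 80.7 with the vector (log2 fold change 0.23, SE 0.043, limma adjusted p = 0.00118), and SDHD had 40.1, 40.2 and 42.3 with SRMS shRNA, against 33.2, 34.2 and 34.0 with the vector (log2 fold change 0.27, SE 0.046, limma adjusted p = 0.000581). For these 3 subunits the groups did not overlap.

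SDHA, the flavoprotein that binds succinate, did not share this. It had 258, 253 and 251 with SRMS shRNA, against 270.1, 263 and 267 with the vector (log2 fold change -0.07, SE 0.031, limma adjusted p = 0.0677). All 3 libraries labelled SRMS shRNA were below all 3 vector libraries, by a margin that missed the threshold. SDHA was called lower with the replicate block (adjusted p = 0.00582), with quantile normalization (log2 fold change -0.14) and without SRMS shRNA replicate 1 (-0.08, adjusted p = 0.0295). With libraries aligned on their medians it was called higher (0.09), so its direction depends on the scaling. Once the trend in length and GC was taken out, SDHA and SDHC (-0.11) were both called lower, and SDHB and SDHD were not called. With the replicate block added as well, SDHB was called higher and SDHD was still not called. The ratio of SDHA to SDHB within each library was 1.61, 1.33 and 1.32 with SRMS shRNA, against 2.11, 1.76 and 1.75 with the vector, without overlap. This ratio does not remove the trend with transcript length either. SDHA has close pseudogenes, and how the counting split such reads is not given in the sources used here.

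Complex III passes electrons from coenzyme Q to cytochrome c. Of its catalytic subunits, UQCRFS1, the Rieske iron-sulfur protein, had 150.4, 173 and 171 with SRMS shRNA, against 116, 126 and 127 with the vector (log2 fold change 0.42, SE 0.057, limma adjusted p = 0.000137), and CYC1, cytochrome c1, had 340.2, 381 and 364 with SRMS shRNA, against 309, 305 and 313 with the vector (log2 fold change 0.23, SE 0.042, limma adjusted p = 0.00111). No values of either overlapped. The small subunits UQCR10 and UQCRQ rose by 0.50 and 0.48 (limma adjusted p = 0.000851 and adjusted p = 7.55e-05), and UQCRB, the best read per kb of the complex's nuclear members, by 0.34 (limma adjusted p = 9.58e-06). UQCRH and UQCRHL, near-identical copies whose reads may be shared between them, rose by 0.43 and 0.28.

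Of the core proteins, UQCRC1 had 328, 351 and 346 with SRMS shRNA, against 291, 293 and 291 with the vector (log2 fold change 0.23, SE 0.035, limma adjusted p = 0.000325), and UQCRC2 had 278, 249 and 256 with SRMS shRNA, against 249, 238 and 239 with the vector, which overlapped (log2 fold change 0.11, SE 0.044, limma adjusted p = 0.0614). UQCRC2 was called higher with the replicate block (adjusted p = 0.00036), without SRMS shRNA replicate 2 (0.0359) and by edgeR and DESeq2 on the recovered reads.

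Complex IV reduces oxygen. COX4I1, its best read nuclear subunit per kb and in reads, had 540.3, 593 and 586 in the libraries labelled SRMS shRNA, against 439, 423 and 430.0 in the vector libraries (log2 fold change 0.41, SE 0.04, limma adjusted p = 1.70e-05). COX5B had 161, 184 and 171 with SRMS shRNA, against 117, 126 and 126 with the vector (log2 fold change 0.48, SE 0.051, limma adjusted p = 3.06e-05), and COX6A1 had 66.2, 72.7 and 69.8 with SRMS shRNA, against 50.1, 45.1 and 45.3 with the vector (log2 fold change 0.57, SE 0.054, limma adjusted p = 1.39e-05). In all 3 the groups did not overlap. COX7A2 and COX8A rose by 0.52 and 0.49 (limma adjusted p = 5.98e-06 and adjusted p = 6.97e-05), COX6B1 by 0.39, COX7A2L, which joins complexes III and IV, by 0.43, and NDUFA4 by 0.30. The smallest change among the 12 well-read members was that of NDUFA4.

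Tissue isoforms of complex IV were near the floor. COX7A1, the heart and muscle form, had 10, 11 and 8 reads with SRMS shRNA, against 6, 18 and 15 with the vector, and COX6B2, the testis form, had 1, 3 and 3 reads, against 0, 2 and 0. COX8C had 22, 6 and 12 reads, against 3, 8 and 5, and its call (limma adjusted p = 0.0439) was lost without any single library except SRMS shRNA replicate 2 (adjusted p = 0.0623 to 0.124). NDUFA4L2, a hypoxia-induced relative of NDUFA4, had 29, 46 and 41 reads, against 25, 31 and 40, and was called higher (log2 fold change 0.47, limma adjusted p = 0.0071). Each of these 4 genes had fewer than 50 reads in every library. These reads are not scaled for depth, which differed between libraries, so they cannot be compared directly. On the scaled values COX7A1 was at 0.05 and COX6B2 at 0.15 on the log2 scale, neither called (limma adjusted p = 0.792 and adjusted p = 0.321).

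Complex V joins a catalytic head (F1), a peripheral stalk and a membrane part. In the head, ATP5F1B, the catalytic beta subunit and the most read nuclear member, had 1929.7, 1922 and 1905 in the libraries labelled SRMS shRNA, against 1626, 1582 and 1581 in the vector libraries (log2 fold change 0.27, SE 0.032, limma adjusted p = 6.40e-05). The groups did not overlap, but the call was lost with quantile normalization (log2 fold change 0.05). ATP5F1A, the alpha subunit that binds next to it in equal number, had 565, 565 and 569.8 with SRMS shRNA, against 539, 532 and 537 with the vector (log2 fold change 0.08, SE 0.029, limma adjusted p = 0.0365). That call was lost without SRMS shRNA replicate 2 or 3 or any single vector library (adjusted p = 0.0532 to 0.131), and with quantile normalization the sign turned (-0.04). The subunits of the central stalk rose: ATP5F1C by 0.21, ATP5F1D by 0.39 and ATP5F1E by 0.57 (limma adjusted p = 0.000765, adjusted p = 0.00714 and adjusted p = 0.000809). ATP5F1E had 257, 335 and 321 with SRMS shRNA, against 177, 213 and 223 with the vector.

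In the peripheral stalk, ATP5PD, ATP5PF and ATP5PO rose by 0.34 to 0.41 on the log2 scale, and ATP5PB by 0.12. The call of ATP5PB was lost without SRMS shRNA replicate 2 or 3 or vector replicate 1 (limma adjusted p = 0.0717, 0.0739 and 0.0656). The genes for the proton-carrying c ring, ATP5MC1, ATP5MC2 and ATP5MC3, which encode the same mature protein, all rose, by 0.28, 0.37 and 0.26 (limma adjusted p = 0.00124, adjusted p = 1.20e-05 and adjusted p = 0.000492). Among small membrane subunits, ATP5ME had 59.4, 72.5 and 69.1 with SRMS shRNA, against 43.2, 43.5 and 46.5 with the vector (log2 fold change 0.58, SE 0.069, limma adjusted p = 5.60e-05), and ATP5MK rose by 0.57 (limma adjusted p = 0.0003). ATP5IF1, the inhibitor that blocks ATP hydrolysis by the synthase, had 108, 141 and 133 with SRMS shRNA, against 83.4, 93.5 and 94.4 with the vector (log2 fold change 0.48, SE 0.087, limma adjusted p = 0.000829). The read-through gene ATP5MF-PTCD1 had 2, 5 and 1 reads with SRMS shRNA, against 6, 12 and 11 with the vector, and the ATP5MG copy ATP5MGL had 10, 21 and 11, against 5, 15 and 9. Neither was called (limma adjusted p = 0.0612 and adjusted p = 0.051). ATP5MGL was called higher with the replicate block (adjusted p = 0.0286) and without SRMS shRNA replicate 1 or vector replicate 2 (0.0431 and 0.0302), and ATP5MF-PTCD1 lower without SRMS shRNA replicate 2 (0.0459).

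The mitochondrial genome encodes 7 subunits of complex I, 1 of complex III, 3 of complex IV and 2 of complex V. MT-ND1, a membrane subunit of complex I at the coenzyme Q site, changed most. It had 4653, 5137 and 5091 in the libraries labelled SRMS shRNA, against 3128, 3455 and 3548 in the vector libraries (log2 fold change 0.56, SE 0.056, limma adjusted p = 2.07e-05). MT-ND2 had 5828, 6839.8 and 6796 with SRMS shRNA, against 3954, 4789.8 and 4826 with the vector (log2 fold change 0.52, SE 0.083, limma adjusted p = 0.000397), and MT-ND5, of the far proton pump, had 4187, 4173 and 4134 with SRMS shRNA, against 3011, 3126 and 3211 with the vector (log2 fold change 0.42, SE 0.037, limma adjusted p = 9.01e-06). In all 3 the groups were apart. MT-ND6, which lies on the opposite strand to the other 12, had 939, 1064 and 1043 with SRMS shRNA, against 649, 746 and 772 with the vector (log2 fold change 0.49, SE 0.066, limma adjusted p = 0.000128). MT-ND4 rose by 0.41 (limma adjusted p = 0.00178).

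MT-CYB, the cytochrome b of complex III, had 1951, 2206 and 2203 with SRMS shRNA, against 1411, 1610.1 and 1628 with the vector (log2 fold change 0.45, SE 0.063, limma adjusted p = 0.000171). MT-CO1, the catalytic subunit of complex IV and the most read member of all, had 16694, 19225 and 19259.6 with SRMS shRNA, against 12452, 14457 and 14519.6 with the vector (log2 fold change 0.41, SE 0.075, limma adjusted p = 0.000889). MT-CO2 and MT-CO3 rose by 0.47 and 0.37, and MT-ATP6, of the proton channel of complex V, by 0.39 (limma adjusted p = 0.00301, adjusted p = 0.00649 and adjusted p = 0.000696). None of these 5 overlapped between groups. With quantile normalization MT-CO1 was at 0.00 and MT-ND4 at 0.10, neither called, a treatment that forces the most read genes of all libraries to the same values.

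The short mitochondrial genes were less certain. MT-ATP8, which overlaps MT-ATP6, had 317, 555 and 549 with SRMS shRNA, against 246, 426 and 439.9 with the vector. Replicate 1 was far below the others in both groups, the groups overlapped, and no change was called (log2 fold change 0.35, SE 0.24, limma adjusted p = 0.231). Within each same-numbered pair it was higher with SRMS shRNA, and it was called higher with the replicate block (adjusted p = 6.84e-13) and without SRMS shRNA replicate 1 (0.0112). MT-ND3 had 731, 999 and 955 with SRMS shRNA, against 522, 712 and 749.7 with the vector. MT-ND4L had 1010.2, 1138 and 1154 with SRMS shRNA, against 856, 992 and 1023 with the vector. In both genes the groups overlapped, and both were called higher (limma adjusted p = 0.0193 and adjusted p = 0.0279). Each call was lost without SRMS shRNA replicate 2 or 3 or vector replicate 1 (adjusted p = 0.0571 to 0.0853 for MT-ND3 and 0.0878 to 0.109 for MT-ND4L). MT-ND4L overlaps MT-ND4, and after removal of the trend its log2 fold change was -0.13, which was called lower with the replicate block (adjusted p = 1.29e-07).

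**Figure D5:**
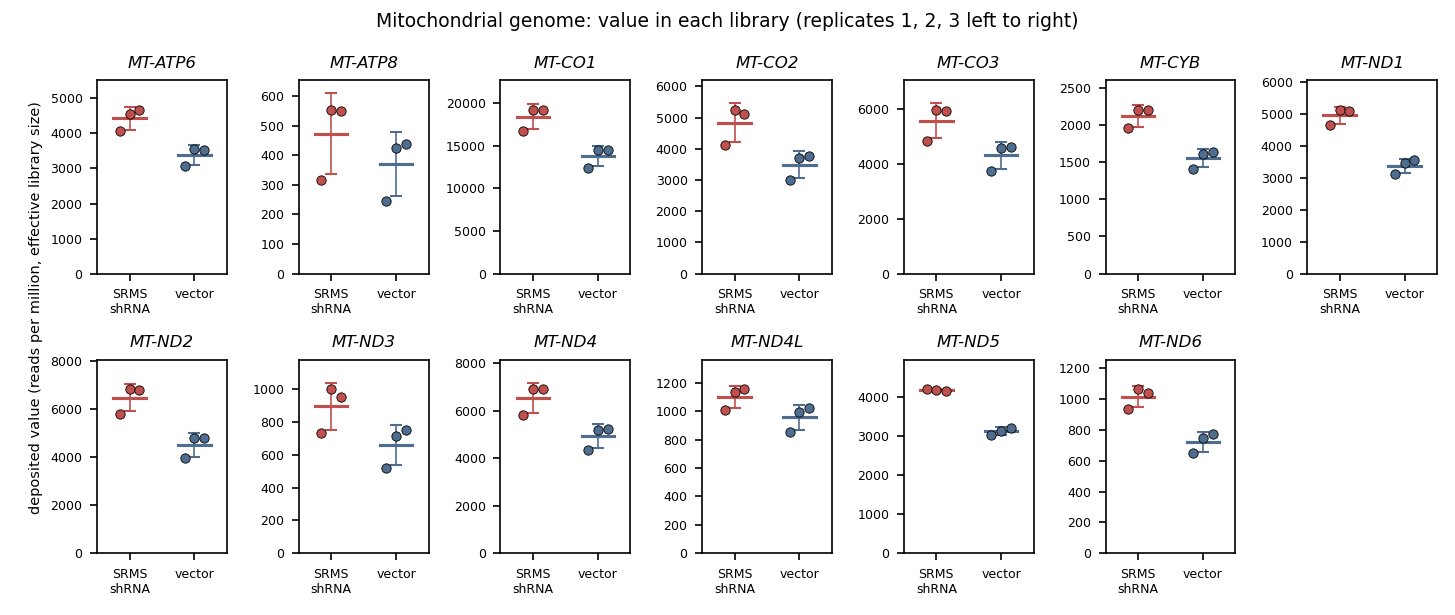
Deposited value (CPM of effective library size) of the 13 mitochondrial members in each library, with mean and SD bars; each panel starts at 0 and has its own scale. In 10 of 13 panels all libraries labelled SRMS shRNA lie above all vector libraries, and replicate 1 is lowest in both groups in 12.

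The same libraries were low for many members. Replicate 1 was the lowest of its group in both groups for 12 of 13 mitochondrial and 62 of 93 nuclear members (66.7%), against 22.2% of all genes. Compared by replicate number, all 13 mitochondrial members and 84 of 93 nuclear members were higher with SRMS shRNA in all 3 pairs, and 5 nuclear members were lower in all 3, while 37.6% of all genes were higher and 39.0% lower in all 3. With the replicate number as a block, 95 members were called higher and 4 lower, while 31.0% and 34.3% of all genes were. Without replicate 1 of both groups, 93 members were called higher and 4 lower, against 29.2% and 33.2% of all genes. On the recovered reads, edgeR gave 93 members higher and 2 lower, against 27.7% and 29.7% of all genes, and DESeq2 gave 92 and 2, against 25.6% and 27.0%.

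Levels per kb of transcript differed far more between genomes than between groups. They are levels of RNA captured by poly(A) tails, and whether capture differs between the genomes was not tested. Median levels of the mitochondrial members were 4746 per kb with SRMS shRNA, against 3532 per kb with the vector, and those of the nuclear core subunits of complex I were 143 per kb with SRMS shRNA, against 113 per kb with the vector. MT-CO1 was the highest mitochondrial member, and COX4I1 (800.5 per kb with SRMS shRNA, against 601 per kb with the vector) and ATP5F1B (1043 per kb with SRMS shRNA, against 868 per kb with the vector) led the nuclear members of complexes IV and V. Summed values of the mitochondrial over the nuclear members were 3.87, 4.09 and 4.16 with SRMS shRNA, against 3.42, 3.88 and 3.87 with the vector, which overlapped. By complex, median levels per kb were compared, without assembly factors and nuclear members of mean under 1. For complex I, mitochondrial over nuclear was 41.1, 39.2 and 42.0 with SRMS shRNA, against 45.7, 50.2 and 51.2 with the vector, without overlap. For complexes III, IV and V the groups overlapped.

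The counts of assembly factors below stand against 26.6% of all genes higher and 30.2% lower. Among genes with a mean value of at least 1, 64.2% were higher under 1000 nt. From 1000 nt to under 2000 nt 41.6% were higher, and at 2000 nt or more 16.4%. Of the factors for complexes I to V, 4 of 10, 2 of 4, 2 of 8, 8 of 27 and 1 of 5 are 2000 nt or more. Whether they rose more than genes of like length was not tested. Of 10 further complex I assembly factors, 5 rose and 2 fell (median log2 fold change 0.23). DMAC1 rose by 0.65, TIMMDC1 by 0.31 and COA1 by 0.28 (limma adjusted p = 4.76e-06, adjusted p = 0.000306 and adjusted p = 0.000137). For complex II, 1 of 4 factors rose, SDHAF4 (0.30, limma adjusted p = 0.00408), and none fell. For complex III, 5 of 8 rose and none fell (0.27), with UQCC3 at 0.54 and UQCC5 at 0.52. For complex IV, 14 of 27 rose and 6 fell (0.18). SURF1, mutated in Leigh syndrome, had 32.8, 32.9 and 30.3 in the libraries labelled SRMS shRNA, against 18.0, 19.3 and 17.9 in the vector libraries (log2 fold change 0.78, SE 0.058, limma adjusted p = 3.02e-06), a rise above that of every member. For complex V, 3 of 5 rose and none fell (0.25), led by FMC1 (0.60, limma adjusted p = 0.00151).

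Of 13 nuclear regulators measured, 8 fell and 1 rose, with a median log2 fold change of -0.32, against 30.2% of all genes lower and 26.6% higher. Transcripts of 10 of the 13 are 2000 nt or longer. Among all genes of that length with a mean value of at least 1, 45.5% were lower and 16.4% higher. YY1, one of the 8 (-0.14), was at 0.02 with libraries aligned on their medians. PPRC1, a PGC-1-related coactivator, had 149.5, 149 and 147 with SRMS shRNA, against 196, 200.2 and 193 with the vector (log2 fold change -0.40, SE 0.032, limma adjusted p = 4.68e-06). HCFC1, a partner of GABP, had 172, 161 and 164 with SRMS shRNA, against 217, 213 and 218 with the vector (log2 fold change -0.38, SE 0.035, limma adjusted p = 1.10e-05), and NFE2L2, the oxidative stress regulator also called NRF2, fell by 0.32 on the log2 scale (limma adjusted p = 0.000104). In these 3 genes the groups did not overlap, and each was also lower with libraries aligned on their medians.

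Other regulators of the list, singled out after their values were seen, had mixed values. NRF1, whose motif is shown above, had 5.04, 4.34 and 3.96 with SRMS shRNA, against 6.12, 6.55 and 7.58 with the vector (log2 fold change -0.55, SE 0.11, limma adjusted p = 0.00183), and SP1 had 22.4, 17.3 and 18.4 with SRMS shRNA, against 34.1, 30.1 and 30.3 with the vector (log2 fold change -0.69, SE 0.091, limma adjusted p = 0.000113). CREB1 and PPARGC1B fell too (-0.53 and -0.87, limma adjusted p = 0.000119 and adjusted p = 0.000447). GABPA, the DNA-binding subunit of GABP, was not called (-0.03, limma adjusted p = 0.741), and ESRRA, a nuclear receptor that works with PGC-1 coactivators, rose (0.24, limma adjusted p = 0.000611). With the trend in length and GC taken out, PPRC1 (-0.29), HCFC1 (-0.24), NFE2L2 (-0.25), NRF1 (-0.44), SP1 (-0.68), CREB1 (-0.22) and PPARGC1B (-0.88) were still called lower. ESRRA was then not called (0.10, adjusted p = 0.123), and GABPA was called higher (0.23, adjusted p = 0.0127).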

How the data were processed

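Stranded TruSeq libraries from oligo(dT)-selected RNA were read on a NovaSeq, per the labels' protocols. The submitters' processing notes name GRCh38 as build and list edgeR, StringTie, HISAT2, cutadapt and FastQC without settings, their versions not given in the sources used here. Although the table is named as log CPM, and the tests were planned for log values, its values are linear. The authors' deposited values are a signal, CPM of an effective library size, so they were log-transformed. Reads recovered from the smallest step of each library were whole, to within 0.1, for at least 99.99% of values. Of 14042 rows, 13 for Y copies of pseudoautosomal genes were left out.

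Tests compared 3 libraries with 3 by limma 3.58.1 (R 4.3.3) on log2(value + 0.5), its variance prior following the mean, Benjamini-Hochberg adjusted over 14029 genes, threshold 0.05, no filter. Fold changes on this scale understate those of low genes: 6 members had mean values under 1. edgeR 4.0.16 and DESeq2 1.42.0 were run on the recovered reads. The test was first tried on simulated data. Lengths are those of 1 coding transcript a gene (GENCODE 29, the one of median length), so the long NDUFA9 transcript makes its level per kb doubtful. Same-numbered libraries deviated together (r across all genes 0.309, 0.106 and 0.120), so the replicate number was taken to pair them, although replicates 2 and 3 correlated as well crosswise (0.114 and 0.113).

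Members and lists were chosen with earlier results of these data known. Named by rule were SRMS, all mitochondrial and SDH members, in each other class the most read member, the 2 highest and 2 lowest fold changes and every lower member, isoform sets, and up to 3 genes of the smallest adjusted p in each list. Other members and some other listed genes were added after their values were seen. The values of 1 member are not reported here.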

Additional observations from a re-analysis of the deposited data

How the results depend on the processing

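With 3 libraries a group, no p-value of a single comparison by permutation can pass the threshold, and 6 members were too little read to judge. The labels name no batch. Transcript length and library scaling move with the members' values, as given above, and nothing here separates more mitochondrial RNA from less RNA of other kinds, since values are relative within a library. Nor was the capture of mitochondrial RNA by its poly(A) tails measured.

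The replicate number as a block gave 95 members higher and 4 lower, with 2 lower accessory subunits of complex I and 1 lower subunit of complex II. It changed no call of a member other than those of NDUFV3, SDHA, UQCRC2, ATP5MGL and MT-ATP8, and it turned SRMS to higher. Equal library sums outside the mitochondrial genome gave 2 lower accessory subunits of complex I and 1 lower of complex II, as did leaving out replicate 1 of both groups. Array weights gave 2, 1 and 1 lower of complex V. Quantile normalization gave 1 lower in each of complexes II and V, and no variance trend or a pseudocount of 0.1 gave 1 in complex V. With replicates 2 and 3 averaged, 3 core subunits of complex I were higher and 0 accessory ones lower.

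Requiring a log2 fold change of at least 0.5 left 0 higher core, 4 accessory and 1 assembly member of complex I, 0 of complex II, 1 of III, 3 of IV, 3 of V and 2 mitochondrial ones. It left 0 lower members, and 989 higher and 1405 lower of all genes. Alignment on library medians gave 6254 higher and 2510 lower of all genes, and 0 lower accessory subunits. With the length and GC trend removed, 2 core and 16 accessory subunits of complex I, 0 of complex II and 9 of complex IV were higher, and 1 assembly factor, 2 of complex II and 1 of complex V were lower. Adding the replicate block gave 1 higher in complex II, and 2 lower accessory, 1 assembly, 2 complex II, 1 complex V and 1 mitochondrial member, MT-ND4L.

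Leaving out 1 library gave 0 to 1 lower members in each of complexes II and V, and the mitochondrial share of reads stayed higher with SRMS shRNA, by 1.07 to 1.53 percentage points (1.29 with all libraries).

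Signs turned for a few log2 fold changes, and the cause was not tested. With the length and GC trend removed, with or without the block, these were ATP5F1D (-0.020), ATP5MC1 (-0.025), ATP5MF (-0.011), COX5A (-0.0048), COX6B2 (-0.0037), COX7A1 (-0.28), CYC1 (-0.016), MT-ATP8 (-0.017), MT-ND4L (-0.13), NDUFA10 (0.019), NDUFA11 (-0.27), NDUFAB1 (-0.028), SDHAF1 (-0.14), SDHC (-0.11) and GABPA (0.23). Aligned on medians, they were GABPA (0.13), NDUFAF5 (0.012), NDUFAF7 (0.11), NDUFV3 (0.013) and SDHA (0.087). Quantile normalization turned ATP5F1A (-0.043), COX7A1 (-0.13), GABPA (0.092), NDUFAF5 (0.0079) and NDUFAF7 (0.091). COX7A1 was also at -0.031 with array weights and -0.082 without replicate 1 of both groups, NDUFA5 at -0.013 with equal sums and GABPA at 0.0071 with replicates 2 and 3 averaged. Leaving out 1 library gave -0.032 to 0.14 for COX7A1, -0.12 to 0.047 for GABPA and -0.00038 to 0.080 for NDUFA5. Over 3282 comparisons of single genes with an alternative, 2978 kept direction and side of the threshold.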

Other observations

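The counts below stand against 26.6% of all genes higher and 30.2% lower, and those of the citric acid cycle and of the genes for the mitochondrial genome lie near these shares. Of 15 genes for cytochrome c and coenzyme Q synthesis, 6 rose and 1 fell (median log2 fold change 0.15). Only 3 of these 15 have transcripts of 2000 nt or more. Among genes of 1000 nt to under 2000 nt with a mean value of at least 1, 41.6% were higher. COQ6, a monooxygenase of coenzyme Q synthesis, had 35.9, 36.8 and 34.6 in the libraries labelled SRMS shRNA, against 25.8, 24.5 and 24.4 in the vector libraries (log2 fold change 0.51, SE 0.05, limma adjusted p = 1.67e-05), without overlap. COQ3, a methyltransferase of the same route, rose by 0.56 (limma adjusted p = 0.000251), whereas COQ8A, an atypical kinase needed for it, had 26.3, 29.3 and 27.3 with SRMS shRNA, against 36.0, 36.4 and 35.7 with the vector (log2 fold change -0.38, SE 0.053, limma adjusted p = 0.000176). Of 14 citric acid cycle enzymes, 4 rose and 3 fell (0.003). MDH2, malate dehydrogenase, had 454, 522 and 509 with SRMS shRNA, against 372, 400.1 and 397 with the vector (log2 fold change 0.34, SE 0.052, limma adjusted p = 0.000302), and IDH3B, a subunit of NAD-dependent isocitrate dehydrogenase, rose by 0.33 (limma adjusted p = 2.25e-05). OGDH, the first enzyme of the oxoglutarate dehydrogenase complex, had 62.2, 56.9 and 59.2 with SRMS shRNA, against 82.1, 83.8 and 81.8 with the vector (log2 fold change -0.47, SE 0.043, limma adjusted p = 1.00e-05).

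Of 15 genes for maintenance and transcription of the mitochondrial genome, 5 rose and 5 fell (0.003). TFAM, which packages mitochondrial DNA and starts its transcription, had 246, 227 and 229 with SRMS shRNA, against 199, 188 and 195 with the vector (log2 fold change 0.27, SE 0.041, limma adjusted p = 0.000298), with no overlap. POLG2, the accessory subunit of the mitochondrial DNA polymerase, and TOP1MT, its topoisomerase, rose by 0.51 and 0.34 (limma adjusted p = 0.000395 and adjusted p = 4.05e-05). The 5 that fell were POLG, TEFM, MTERF1, MTERF3 and MTERF4. POLG had 134, 131 and 129 with SRMS shRNA, against 160, 152 and 149.9 with the vector (log2 fold change -0.23, SE 0.037, limma adjusted p = 0.000442). With libraries aligned on their medians none of these 5 was called. Of 16 measured genes for mitochondrial RNA processing and stability, 6 rose and 4 fell (0.06). MTPAP, the poly(A) polymerase that tails mitochondrial mRNAs, had 22.1, 20.7 and 22.1 with SRMS shRNA, against 34.8, 33.2 and 34.1 with the vector (log2 fold change -0.64, SE 0.052, limma adjusted p = 4.75e-06). SLIRP, which stabilises these mRNAs, had 119, 139.8 and 126 with SRMS shRNA, against 86.2, 90.4 and 95.3 with the vector (log2 fold change 0.50, SE 0.06, limma adjusted p = 6.45e-05), and FASTK, which acts on MT-ND6 mRNA, rose by 0.48 (limma adjusted p = 1.45e-05). With libraries aligned on their medians these 3 genes kept their direction. LRPPRC, the most read gene of the same list, went opposite to SLIRP. It had 280, 260 and 265 with SRMS shRNA, against 312, 306 and 308 with the vector (log2 fold change -0.20, SE 0.036, limma adjusted p = 0.000765). With libraries aligned on their medians LRPPRC was at -0.04 and not called.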
